A study of Homo sapiens with 6 samples.

Results

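The genes described here are 10 inhibitors and feedback regulators of WNT signalling: the secreted inhibitors DKK1, DKK2, DKK3, SFRP1, SFRP2 and SFRP4, the membrane inhibitor APCDD1, and the intracellular feedback genes NKD1, NKD2 and AXIN2. They were picked by gene symbol, with their counts in these libraries already known, and are 10 of the 60843 genes in the deposited table. Each symbol matched 1 gene. Because the choice rested on these values, the levels and differences of the 10 genes are a description and carry no p-value.

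The series holds 6 RNA sequencing libraries, 2 at each of days 0, 2 and 5 of a drug-based protocol that, by its title, turns BJ cells into cells called FiNs. BJ cells are normal human foreskin fibroblasts kept as an established line, and no other line enters. Day 0 cells, labelled as fibroblasts, stand for the start, when the protocol has the cells in DMEM with serum on a poly-D-lysine coat. Day 2 cells had spent the time since day 0 in a neuronal induction medium, and day 5 cells had then spent the time since day 2 in a neuronal maturation medium, both with 10 µM forskolin, which activates adenylyl cyclase and raises cAMP. The protocol withdraws forskolin on day 5, and whether RNA was taken before that is not stated. Both later groups are labelled as induced neuron cells. All 6 libraries are labelled WT and, day 0 included, as reprogramming. No cells kept in the new media without the drug were analysed here, so effects of time, medium and forskolin cannot be told apart.

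WNTs are secreted, lipid-bearing ligands that bind Frizzled receptors together with the co-receptors LRP5 and LRP6. Binding halts a destruction complex built on AXIN and APC, so that beta-catenin builds up and acts with TCF/LEF factors on target genes. Cells restrain this signal outside the cell through proteins that block the ligand or the co-receptor, and inside the cell through targets such as AXIN2 that act back on the pathway. In skin, dermal fibroblasts both send and receive WNT signals.

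Promoter sequences are shown for DKK1, NKD2 and APCDD1, the genes in the promoter table that were well above the floor on at least 1 day, each of which followed another course over the days. They are the 250 bases before the RefSeq start on GRCh38.p14, written 5′ to 3′ along the gene, all on the plus strand. DKK1 covers chr10:52314031-52314280, NKD2 covers chr5:1008552-1008801 and APCDD1 covers chr18:10454385-10454634. Capitals mark matches, on either strand, to the TCF/LEF core in its forms CTTTGA and also CTTTGT, to the cAMP response element TGACGTCA, to its shorter form, TGACG, which lies within it, and to the TATA box, spelled TATAAA.
DKK1: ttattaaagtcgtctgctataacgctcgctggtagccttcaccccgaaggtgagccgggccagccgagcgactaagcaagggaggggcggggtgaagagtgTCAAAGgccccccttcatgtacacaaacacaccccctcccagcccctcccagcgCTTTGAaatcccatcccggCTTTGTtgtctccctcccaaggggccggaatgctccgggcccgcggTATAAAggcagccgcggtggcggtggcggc
NKD2: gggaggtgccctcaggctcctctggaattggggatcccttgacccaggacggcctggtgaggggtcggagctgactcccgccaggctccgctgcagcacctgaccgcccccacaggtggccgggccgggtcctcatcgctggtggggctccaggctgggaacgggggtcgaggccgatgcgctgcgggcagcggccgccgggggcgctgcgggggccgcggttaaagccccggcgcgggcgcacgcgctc
APCDD1: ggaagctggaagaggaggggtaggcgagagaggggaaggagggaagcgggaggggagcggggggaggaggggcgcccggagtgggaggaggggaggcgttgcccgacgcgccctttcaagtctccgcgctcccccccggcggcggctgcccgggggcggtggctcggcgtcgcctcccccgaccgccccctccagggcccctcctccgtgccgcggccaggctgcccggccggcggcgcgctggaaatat

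The DKK1 window held 4 matches. A reversed CTTTGA lay 149 to 144 bases before the start, a forward CTTTGA 95 to 90 bases before it, a forward CTTTGT 76 to 71 bases before it and TATAAA 30 to 25 bases before it. The NKD2 and APCDD1 windows held none of these letters. Among 35116 RefSeq promoters of the same length, 22.8% held either TCF/LEF core, 0.584% held 3 or more such matches and 10.7% held TATAAA. The shorter response element was found in 21.2% of them and TGACGTCA in 1.65%. The table covered 5 of the 10 genes. The windows of SFRP2 and SFRP4, with GC contents of 57.6% and 64.4%, held 0 matches and 1 match, a reversed TGACG 48 to 44 bases before the start of SFRP4. GC content was 62.8% in the DKK1 window, 75.6% in that of NKD2 and 77.2% in that of APCDD1. A match is a run of letters and not a shown binding site.

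Library totals ran from 17605858 to 27953926 expected counts, and the day 5 libraries were the shallowest. Levels are in CPM, with library sizes scaled by TMM factors. A count of 3, used as the floor, stood for 0.103 to 0.118 CPM on day 0, 0.112 to 0.125 CPM on day 2 and 0.164 to 0.180 CPM on day 5. Differences are log2 fold changes with their standard error (SE) from 1 edgeR fit of all 6 libraries. A gene is said to have risen or fallen where its adjusted p over 16327 tested genes was under 0.05. Whether replicate libraries stem from separate cultures is not in the labels, so the test measures only their spread, which may be technical. That spread was small, with a common coefficient of variation of 3.33%. In bulk RNA, fewer cells of a type and less RNA per cell cannot be told apart. Floors and intervals cover counting error only.

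Of the 10 genes, 7 passed the filter on low counts. DKK2 passed through its day 0 libraries and APCDD1 through its day 5 libraries alone, so each had to differ between days once it passed. SFRP2, SFRP4 and NKD1 did not pass and are given by their counts.

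DKK1, a secreted inhibitor that binds LRP5 and LRP6 and keeps them from forming a complex with WNT and Frizzled, fell at each step. The gene, whose promoter window is printed above, lies on chromosome 10 at 52314296 to 52318042 of GRCh38 (ENSG00000107984, plus strand, protein-coding). Its counts were 256 and 306 on day 0, 96 and 107 on day 2, and 3 and 10 on day 5, or 10.1 and 10.5, then 3.99 and 3.98, then 0.180 and 0.546 CPM. No library of a day overlapped those of another day, and the lowest day 5 library was at the floor. On day 2 DKK1 averaged 3.99 ± 0.0119 CPM, against 10.3 ± 0.295 CPM on day 0 (SD, n = 2 each), a log2 fold change of -1.37 ± 0.17 (SE), or 2.58-fold lower. On day 5 it averaged 0.363 ± 0.259 CPM, 27.4-fold lower than on day 0 (log2 fold change -4.78 ± 0.28) and 10.6-fold lower than on day 2 (-3.41 ± 0.32). The size of the day 5 difference turned on the replicate with 10 counts. Without day 5 replicate 2 the log2 fold change of DKK1 was -5.80 against day 0 and -4.43 against day 2. The antisense gene PRKG1-AS1 overlaps DKK1 and had 43.3 to 63.6 counts in every library, a far narrower range than the 3 to 306 counts of DKK1. The strand setting is not given in the sources used here, so it is not known to which of them reads from the shared stretch were counted.

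DKK2, a relative of DKK1 that also binds LRP6 and can block or enhance the signal depending on the cell, was found almost only on day 0. It lies on chromosome 4 at 106921802 to 107283806 (ENSG00000155011, minus strand, protein-coding). It had 24 and 12 counts on day 0, 0 and 0 on day 2, and 0 and 1 on day 5. The day 0 libraries, at 0.946 and 0.412 CPM, stood above all 4 later ones but differed from each other. DKK2 fell at least 11.2-fold on day 2 against day 0, taking the floor of 3 counts over both day 2 libraries and the day 0 counts as exact. The counting error of the 36 day 0 counts is not in this bound. On day 5 it had 1 count against 36 on day 0, a ratio 23.1-fold lower with a 95% counting interval of 3.90 to 939. Days 5 and 2 were both at or under the floor, so no fold is given between them. Without day 0 replicate 1 the gene no longer passed the filter.

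DKK3, the divergent member of the DKK family, whose effect on WNT signalling varies between cell types, was the most abundant of the 10 genes on each day. It lies on chromosome 11 at 11963106 to 12009769 (ENSG00000050165, minus strand, protein-coding). Its levels were 2380 and 2415 CPM on day 0, 2966 and 2957 CPM on day 2, and 819 and 845 CPM on day 5. The day 2 libraries were the highest and the day 5 libraries the lowest, with no overlap. DKK3 rose on day 2 to 2961 ± 5.98 CPM, against 2398 ± 25.1 CPM on day 0, a 1.24-fold difference (log2 fold change 0.30 ± 0.02). On day 5 it averaged 832 ± 18.1 CPM, 2.88-fold lower than on day 0 (-1.53 ± 0.02) and 3.56-fold lower than on day 2 (-1.83 ± 0.02). DKK3 thus moved against DKK1 on day 2 and with it on day 5. The day 2 difference depended on the scaling in size, at 0.12 on the log2 scale with library totals alone, where it still passed.

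SFRP1, a secreted protein with a Frizzled-like domain that binds WNT ligands, rose at each step. It is a protein-coding gene on chromosome 8 (ENSG00000104332). Its levels were 277 and 278 CPM on day 0, 419 and 416 CPM on day 2, and 521 and 513 CPM on day 5. Within each day the replicates lay far closer together than the days did. SFRP1 averaged 418 ± 1.56 CPM on day 2, against 277 ± 1.01 CPM on day 0, 1.51-fold higher (log2 fold change 0.59 ± 0.02). On day 5 it averaged 517 ± 6.06 CPM, 1.86-fold higher than on day 0 (0.90 ± 0.02) and 1.24-fold higher than on day 2 (0.31 ± 0.02). Of DKK1, DKK2, DKK3 and SFRP1, it alone was higher on day 5 than on day 0.

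SFRP2 and SFRP4, of the same family, were close to undetected. SFRP2 (ENSG00000145423, chromosome 4 at 153780592 to 153789120, minus strand, protein-coding) had 1 and 1 counts on day 0, 1 and 3 on day 2, and 1 and 3 on day 5. SFRP4 (ENSG00000106483, chromosome 7 at 37905932 to 38025695, minus strand, protein-coding) had a single count, in day 5 replicate 1, and 0 in the other 5 libraries. No library of either gene was above the floor, so differences between days were not detectable at this depth. Of SFRP1, SFRP2 and SFRP4, only SFRP1 could be followed over the days.

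APCDD1, a membrane-bound glycoprotein that binds WNT and LRP proteins and lowers the signal in the cell that carries it, was near absent until day 5. It lies on chromosome 18 at 10454628 to 10489948 (ENSG00000154856, plus strand, protein-coding). It had 4 and 13 counts on day 0, 1 and 0 on day 2, and 445 and 507 on day 5. The day 5 levels, 26.7 and 27.7 CPM, stood far above the 0.158 and 0.446 CPM of day 0, and the day 2 libraries were under the floor. On day 5 APCDD1 averaged 27.2 ± 0.70 CPM, against 0.302 ± 0.204 CPM on day 0, 85.8-fold higher (log2 fold change 6.42 ± 0.24). Against day 2 it had 952 counts to 1, 1385 times as much once scaled, with counting error allowing 248 to 54743 times (95% interval). The day 2 libraries held 1 count against 17 on day 0, a ratio 15.9-fold lower with an interval of 2.49 to 664. Day 0 replicate 2 held 13 of the 17 counts, and without it the APCDD1 differences from day 0 were -2.70 on day 2, no longer under the threshold, and 7.37 on day 5, on the log2 scale.

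NKD2, an intracellular protein that binds Dishevelled, the relay below Frizzled, and damps the signal, peaked on day 2. It lies on chromosome 5 at 1008829 to 1038943 (ENSG00000145506, plus strand, protein-coding). Its counts were 142 and 143 on day 0, 894 and 1010 on day 2, and 58 and 39 on day 5. In CPM these were 5.6 and 4.91, then 37.2 and 37.5, then 3.48 and 2.13. Both day 2 libraries were above all others, and both day 5 libraries were below those of day 0. On day 2 NKD2 averaged 37.4 ± 0.246 CPM, against 5.25 ± 0.485 CPM on day 0, 7.13-fold higher (log2 fold change 2.83 ± 0.12). On day 5 it averaged 2.80 ± 0.953 CPM, 13.4-fold lower than on day 2 (-3.75 ± 0.15) and 1.89-fold lower than on day 0 (-0.92 ± 0.19). Its relative NKD1, with the same known role (ENSG00000140807, chromosome 16 at 50548330 to 50649249, plus strand, protein-coding), had 3 and 1 counts on day 0, 5 and 2 on day 2, and 1 and 5 on day 5. The NKD1 days overlapped and no difference was detectable. Of the pair, only NKD2 could be followed over the days.

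AXIN2, a scaffold of the destruction complex and a direct target of beta-catenin with TCF/LEF in many tissues, rose by day 5. It lies on chromosome 17 at 65528563 to 65561647 (ENSG00000168646, minus strand, protein-coding). Its counts were 84 and 101 on day 0, 103 and 111 on day 2, and 237 and 231 on day 5, or 3.31 and 3.47, then 4.29 and 4.13, then 14.2 and 12.6 CPM. The day 5 libraries stood apart, while days 0 and 2 lay close together without overlap. On day 2 AXIN2 averaged 4.21 ± 0.113 CPM, against 3.39 ± 0.111 CPM on day 0, a log2 fold change of 0.31 ± 0.17 that did not pass. On day 5 it averaged 13.4 ± 1.13 CPM, 3.94-fold higher than on day 0 (1.98 ± 0.15) and 3.18-fold higher than on day 2 (1.67 ± 0.15).

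**Figure D1:**
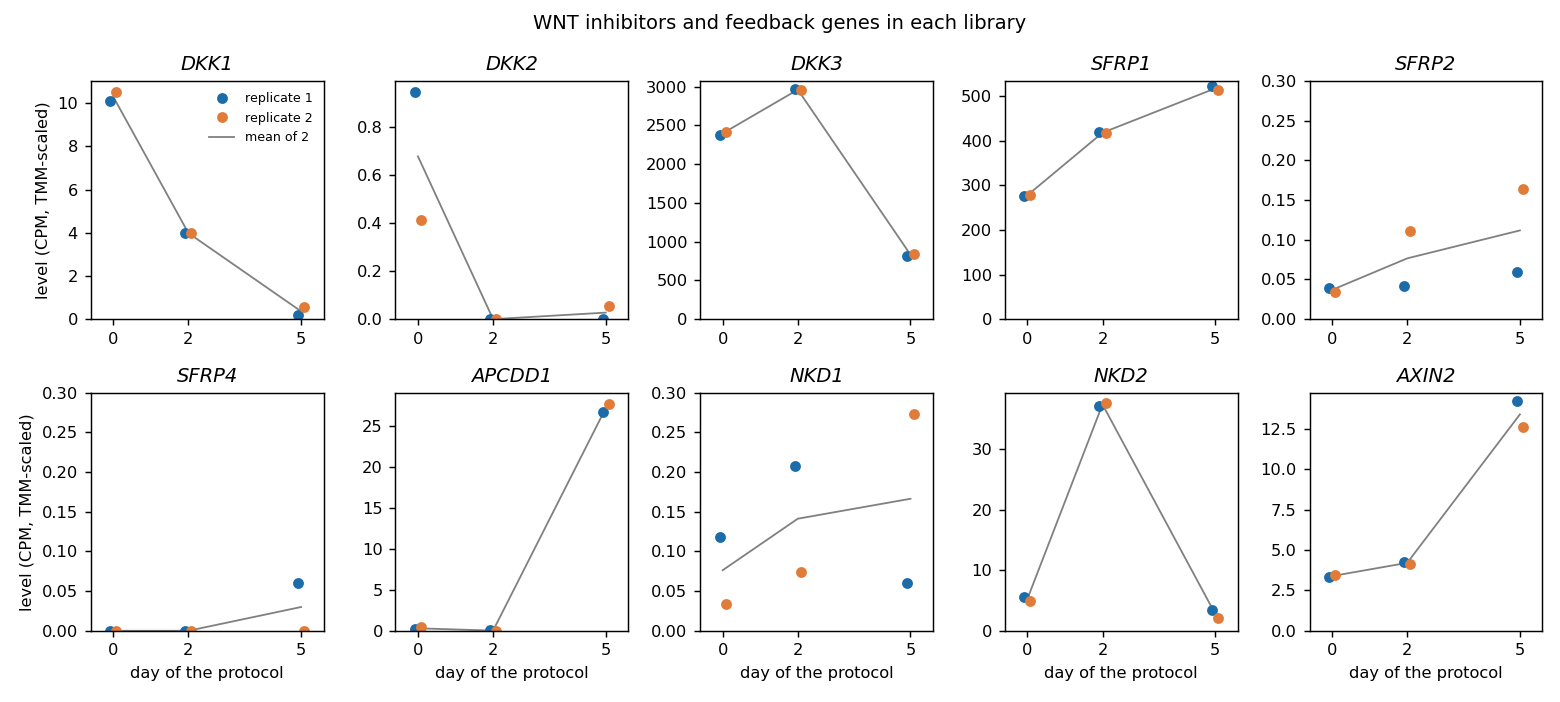
Level of each of the 10 genes (vertical axis, TMM-scaled CPM, a scale of its own in each panel) against the day of the protocol, with replicates 1 and 2 as points and the mean of 2 as a line. DKK1 falls at each step, SFRP1 rises at each step, NKD2 peaks on day 2 at 37.2 and 37.5 CPM, and APCDD1 and AXIN2 are highest on day 5, while SFRP2, SFRP4 and NKD1 stay at a few counts.

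Levels of different genes were compared per length, as CPM per kb of the gene length in the deposited table. On day 0 DKK3 was at 1808 CPM per kb, SFRP1 at 62.1, DKK1 at 5.71, NKD2 at 2.41 and AXIN2 at 0.796. DKK2 followed at 0.186 and APCDD1 at 0.0794 CPM per kb, 2 neighbours whose libraries overlapped. On day 2 the per-length order was DKK3, SFRP1, NKD2, DKK1 and AXIN2, at 2233, 93.5, 17.1, 2.21 and 0.987 CPM per kb. NKD2 had passed DKK1 there, and APCDD1, DKK2, NKD1 and SFRP4 were at the bottom and not separable. On day 5 DKK3 was at 627 CPM per kb, SFRP1 at 116, APCDD1 at 7.14, AXIN2 at 3.15, NKD2 at 1.28 and DKK1 at 0.201. APCDD1 thus stood next after DKK3 and SFRP1 on day 5, while DKK1 lay below AXIN2 and NKD2. SFRP2, SFRP4, NKD1 and DKK2 came last, on at most 5 counts a library. The first 5 genes at each day did not overlap with their neighbours in the order.

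The 2 abundant secreted inhibitors among the genes described here drew closer. Per kb, DKK3 was 29 and 29.2 times SFRP1 in the day 0 libraries, 23.8 and 23.9 times in the day 2 libraries, and 5.29 and 5.55 times in the day 5 libraries. Their order held in all 6 libraries. The ratio rests on a DKK3 length of 1326 bases in the deposited table, where the union of its GENCODE exons spans 5059 bases. With exon unions as lengths, a choice made after seeing the data, the mean ratio of DKK3 to SFRP1 was 8.13, 6.67 and 1.52 on days 0, 2 and 5. Among named genes of at least 200 bases, DKK3 ranked 17, 20 and 97 by level per kb at the 3 days, and SFRP1 ranked 1142, 794 and 525. These ranks also rest on the deposited lengths, and ranks with exon unions were not computed.

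**Figure D2:**
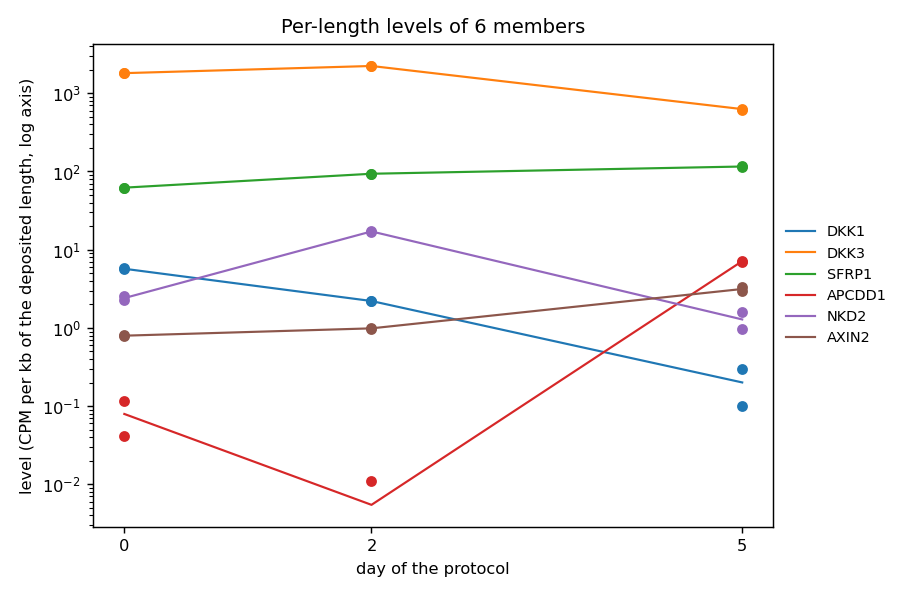
Per-length level (vertical log axis, CPM per kb of the deposited gene length) of 6 of the genes against day, with each library as a point and the mean of 2 as a line; a library at 0, APCDD1 in day 2 replicate 2, cannot be drawn on this axis. DKK3 and SFRP1 stay on top, NKD2 and DKK1 cross between days 0 and 2, and APCDD1 rises to 7.14 CPM per kb on day 5.

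On day 2 against day 0, 6 of the 7 tested genes passed, against 66.8% of all tested genes. DKK3, NKD2 and SFRP1 rose (33.4% of all tested genes did) and APCDD1, DKK1 and DKK2 fell (33.4%), APCDD1 not without day 0 replicate 2. Changes past 2-fold, tested as such, were found upward for NKD2 (6.99% of all tested genes) and downward for APCDD1 and DKK2 (5.54%), or 12.5% of all tested genes in either direction. The DKK2 call rests on 0 counts against 36 and that of APCDD1 on 1 count against 17. Both genes passed the filter through the libraries of 1 day, so their calls here and below are not independent tests. On day 5 against day 0, all 7 tested genes passed, against 69.9% of all tested genes. APCDD1, AXIN2 and SFRP1 rose (35.8% of tested genes) and DKK1, DKK2, DKK3 and NKD2 fell (34.1%). Past 2-fold were 5 of them, upward AXIN2 and APCDD1 (9.74% of all tested genes) and downward DKK1, DKK2 and DKK3 (10.3%), against 20.1% in either direction. On day 5 against day 2, 6 of the 7 passed, against 65.8% of all tested genes. APCDD1, AXIN2 and SFRP1 rose (32.1%) and DKK1, DKK3 and NKD2 fell (33.7%). All of these but SFRP1 passed 2-fold, as 6.41% of all tested genes did upward, 7.96% downward and 14.4% in either direction. The 2 libraries of the days compared did not overlap in CPM for 82.7, 84.5 and 82.4% of all tested genes in the 3 comparisons. With library totals in place of TMM factors, the median of all tested genes moved to -0.18 on day 2 and -0.16 on day 5 against day 0, where it was 0.00 and 0.04, and the share of calls that were upward to 38.1% and 39%, where it was 50.01% and 51.2%. Under it the 7 genes kept their directions and calls, DKK2 between days 5 and 2 aside. Since these contrasts chose the genes, nothing is read from the counts. Days 2 and 5 share the day 0 libraries in these comparisons. SFRP1 kept 1 direction throughout and DKK1 the other, while DKK3 and NKD2 turned round on day 2 and APCDD1 and AXIN2 differed mainly on day 5.

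**Figure D3:**
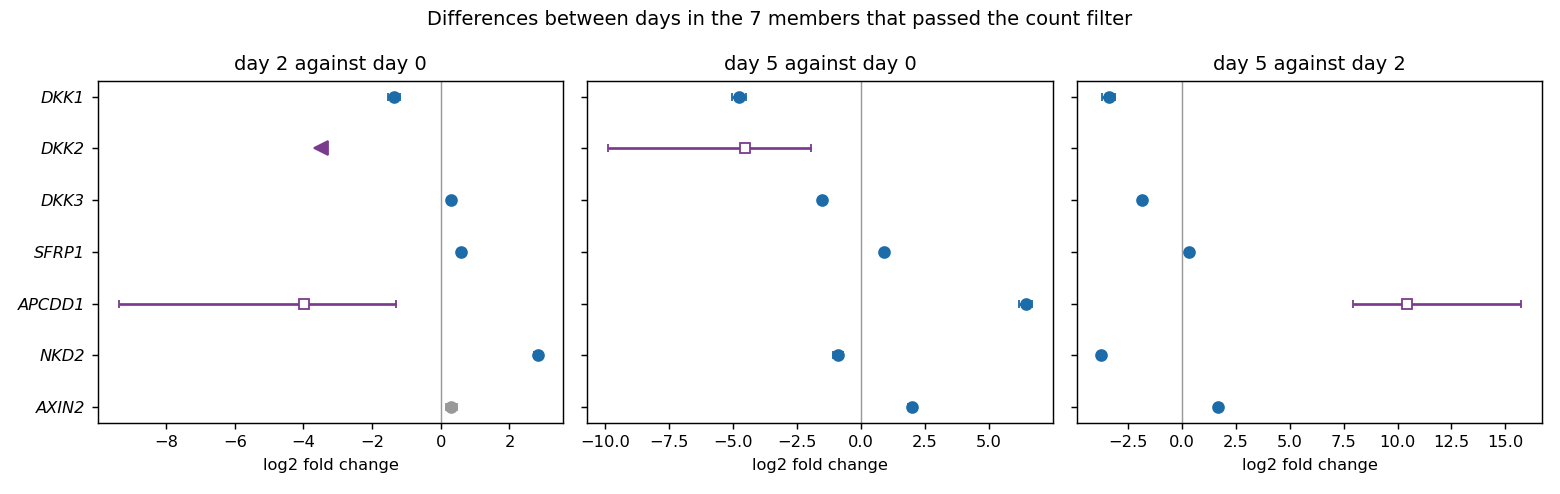
Log2 fold change (horizontal axis) of the 7 tested genes in the 3 comparisons, later day over earlier day. Circles are fitted values with SE bars, blue where the gene passed and grey where it did not (AXIN2 on day 2 against day 0); open squares are ratios of low counts with 95% counting intervals, and the triangle is the bound for DKK2. DKK2 on day 5 against day 2 is left out, with 1 count and 0 counts.

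For 5 of the genes, the nearest other genes were sought by Euclidean distance over the log2 fold changes of days 2 and 5 against day 0, among 10657 genes averaging 5 CPM or more and over the 6 libraries. The nearest to DKK1 were MAPK8IP2, SPOCD1 and GALNT15, at distances of 0.13, 0.21 and 0.22. Those to NKD2 were TLCD4 at 0.16, GABRA2 at 0.23 and CXCL8 at 0.32. Both sets rest on single day 5 libraries: with 1 or the other left out, the day 5 difference from day 0 was -5.80 or -4.24 for DKK1 and -0.59 or -1.31 for NKD2, shifts as large as these distances or larger. Within a distance of 0.25 AXIN2 had 18 genes, led by S1PR2 at 0.10, KCTD7 at 0.10 and DNAJC22 at 0.13. DKK3 had 32, led by SYNGR2, FUOM and TNFRSF1B, each at 0.06. SFRP1 had 281, led by PHF20L1 at 0.02 and DNAL1 and SUSD6 at 0.03. The SEs of the AXIN2 differences, 0.17 and 0.15, exceeded the distances to its named genes, and those of SFRP1, both 0.02, were near its own. The order of the neighbours of AXIN2 and SFRP1 is therefore not resolved. For DKK2 and APCDD1, whose fitted differences rest on days at or near 0 counts, no neighbours are given.

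The rest of the pathway was followed in 7 lists of 115 genes by role, of which 80 were tested. On day 2 against day 0, 30 of the 80 rose and 31 fell, or 37.5% and 38.8%, where 33.4% of all tested genes rose and 33.4% fell. The median log2 fold change was -0.00328 against 0.00303 for all tested genes. On day 5 against day 0, 45 rose and 22 fell, or 56.3% and 27.5% against 35.8% and 34.1% of all (median 0.35 against 0.04). On day 5 against day 2, 45 rose and 24 fell, or 56.3% and 30% against 32.1% and 33.7% of all (median 0.24 against 0.01). With library totals alone, 27 rose and 40 fell on day 2 against day 0, 41 rose and 27 fell on day 5 against day 0, and 43 rose and 25 fell on day 5 against day 2. Past 2-fold were 9, 33 and 21 of the 80 in the 3 comparisons, against 12.5, 20.1 and 14.4% of all tested genes, and 9 of 80 is near that background.

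Among other extracellular and membrane antagonists, 4 of 9 tested genes rose and 1 fell on day 2 against day 0, and 7 rose and 1 fell on day 5 against day 0, with medians of 0.54 and 1.85. The shares of all tested genes given above, 33.4% up and 33.4% down on day 2 and 35.8% up and 34.1% down on day 5 against day 0, are the background for this list and for those that follow, and with 3 to 19 genes a list nothing particular to a list is read from its counts. Adjusted p-values here and below come from the edgeR test and are descriptive, since the lists were chosen with earlier results of these data known. Many of the named genes were also picked by low adjusted p in these same libraries. KREMEN1, a receptor that binds DKK1 and DKK2 and works with them on LRP6, rose to 236 ± 1.61 CPM on day 5, against 40.9 ± 1.24 CPM on day 0 (log2 fold change 2.53 ± 0.04, adjusted p = 5.5e-19). Its day 2 level was already 162.5 ± 1.75 CPM, so KREMEN1 was higher on both days on which DKK1 was lower. APCDD1L, the paralog of APCDD1, fell to 1.12 ± 0.196 CPM on day 5, against 31.3 ± 0.843 CPM on day 0 (-4.81 ± 0.15, adjusted p = 1.2e-14), the opposite direction to APCDD1. DKK4, SFRP5, WIF1 and SOST, further secreted inhibitors, had 0 counts in every library, but others on this list were abundant. IGFBP4 averaged 3444 ± 92.2 CPM on day 5, against 1515 ± 34.2 CPM on day 0 (1.19 ± 0.02, adjusted p = 1.1e-18). Its day 2 level was 8343 ± 160 CPM. SERPINF1 averaged 316 ± 1.78 CPM on day 5, against 73.0 ± 3.46 CPM on day 0 (2.11 ± 0.04, adjusted p = 9.1e-18).

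WNT ligands and their secretion genes split, with 4 of 10 rising and 4 falling on day 5 against day 0 (median -0.38). WNT5A, a ligand known mainly for signalling without beta-catenin, averaged 454 ± 12.7 CPM on day 5, against 173 ± 4.94 CPM on day 0 (1.39 ± 0.03, adjusted p = 6.3e-17). WNT2 averaged 18.8 ± 1.13 CPM on day 5, against 0.359 ± 0.217 CPM on day 0 (5.73 ± 0.27, adjusted p = 2.8e-12). WNT16 was highest on day 2, as NKD2 was, at 441 ± 2.89 CPM against 171 ± 2.91 CPM on day 0 (1.37 ± 0.03, adjusted p = 5.6e-17), and fell on day 5 against day 0 (-1.54 ± 0.04, adjusted p = 1.5e-16).

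Of 14 receptors and co-receptors, 3 rose and 9 fell on day 2 against day 0 (median -0.28), and 8 rose and 5 fell on day 5 against day 0 (median 0.46). LRP6, a co-receptor that DKK1 binds, fell to 45.3 ± 0.745 CPM on day 5, against 72.1 ± 0.843 CPM on day 0 (-0.67 ± 0.05, adjusted p = 2.4e-09). LRP5, which DKK1 also binds, did not pass, at 61.3 ± 1.05 CPM on day 5 and 56.6 ± 2.69 CPM on day 0 (0.11 ± 0.05, adjusted p = 0.065). ROR2, a receptor for WNT5A, rose to 97.0 ± 1.80 CPM on day 5, against 2.48 ± 0.277 CPM on day 0 (5.28 ± 0.10, adjusted p = 5.4e-18). In the list of R-spondins and receptor turnover all 3 tested genes rose on day 5 against day 0. Among them ZNRF3, a ligase that removes Frizzled and, like AXIN2, a feedback target in many tissues, averaged 16.7 ± 0.424 CPM on day 5, against 6.67 ± 1.32 CPM on day 0 (1.33 ± 0.14, adjusted p = 1.3e-07).

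Of 19 genes of the destruction complex and relay, 9 rose and 4 fell on day 5 against day 0 (median 0.12), but with library totals alone 5 rose and 8 fell (median -0.08). CTNNB1, which encodes beta-catenin, averaged 344 ± 5.49 CPM on day 5 and 303 ± 6.64 CPM on day 0 (0.19 ± 0.03, adjusted p = 1.1e-05), and the sign turned to -0.02 with library totals. Of 12 TCF/LEF factors and partners, 10 rose and 2 fell (median 0.84). LEF1 averaged 23.7 ± 0.0783 CPM on day 5, against 6.76 ± 0.580 CPM on day 0 (1.81 ± 0.11, adjusted p = 1.0e-10). Of 13 genes listed as beta-catenin targets in other tissues, 4 rose and 6 fell (median -0.20), while AXIN2 rose. CCND1, a cyclin, fell to 450 ± 8.21 CPM on day 5, against 2805 ± 30.8 CPM on day 0 (-2.64 ± 0.02, adjusted p = 2.0e-23), and TNFRSF19 rose to 539 ± 3.34 CPM, against 84.8 ± 1.35 CPM (2.67 ± 0.03, adjusted p = 3.4e-21). MYC did not pass, at 16.4 ± 2.47 CPM on day 5 and 16.0 ± 0.285 CPM on day 0 (0.04, adjusted p = 0.78).

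**Figure D4:**
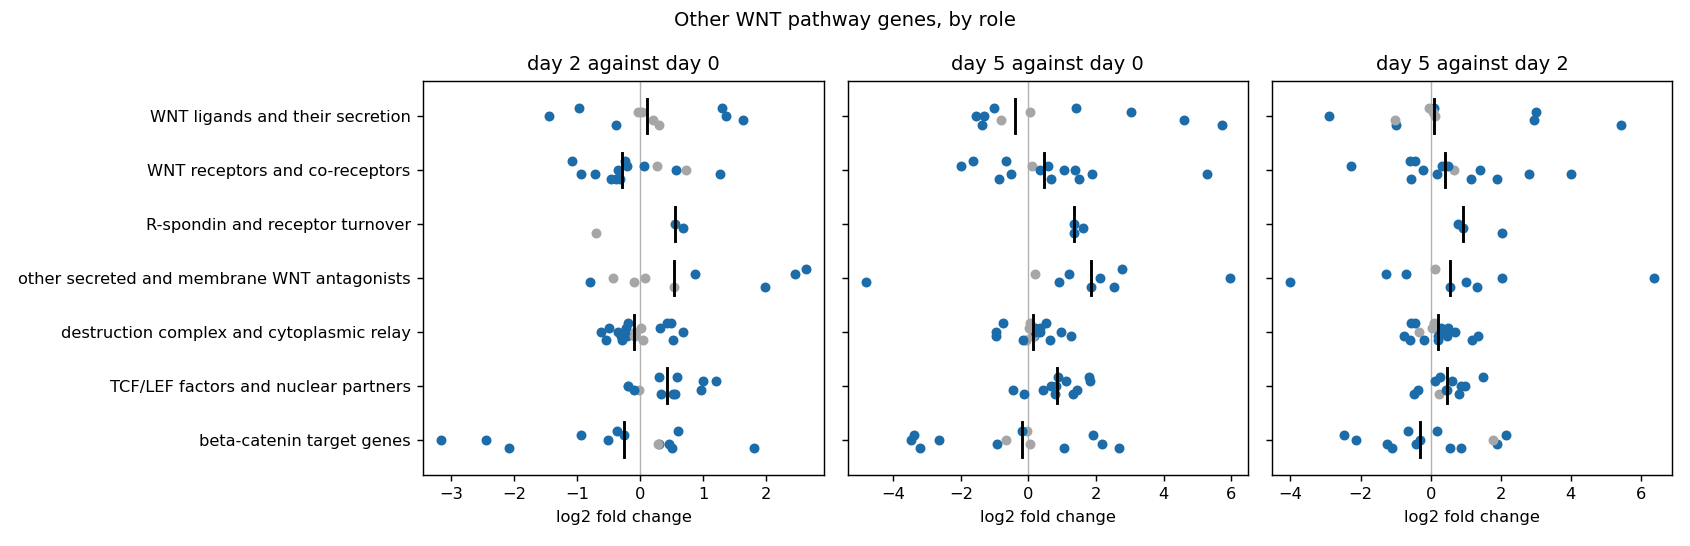
Log2 fold change (horizontal axis, later day over earlier day) of the tested genes of the other 7 pathway lists, 1 row per list, with each gene a point, blue where adjusted p was under 0.05 and grey where it was not, and a black bar at the list's median. On day 5 against day 0 the medians of the other antagonists and of the TCF/LEF factors lie right of 0, at 1.85 and 0.84, and that of the target genes left of it, at -0.20.

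The labelled cell types were checked by markers. All 12 fibroblast markers, COL1A1 and VIM included, were above 3 counts in both libraries of each day, but they moved apart. On day 5 against day 0, 4 rose and 8 fell. COL1A2 averaged 14314 ± 185 CPM on day 5, against 5049 ± 81.2 CPM on day 0, COL3A1 6436 ± 66.9 against 2541 ± 42.5 CPM, and PDGFRA 2639 ± 45.0 against 334 ± 9.21 CPM. S100A4 averaged 2.36 ± 0.368 CPM on day 5, against 39.6 ± 0.121 CPM on day 0, DCN 202 ± 1.71 against 1043 ± 8.41 CPM, THY1 104 ± 0.447 against 426 ± 13.5 CPM, and VIM 1465 ± 11.4 against 4847 ± 8.48 CPM. The summed level, most of it from the 3 collagens on day 5, was 25076 to 25479 CPM on day 0, 23650 to 23917 on day 2 and 35352 to 35799 on day 5.

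Of 15 neuron markers, 6, 7 and 7 were above 3 counts in both libraries at the 3 days, and their summed level was 263 to 271, 161 to 167 and 114 to 118 CPM. Most of it was TUBB3, at 87.4 ± 0.335 CPM on day 5 and 226 ± 4.25 CPM on day 0. Of the 6 that were tested, 1 rose and 4 fell on each later day against day 0. SNAP25, a synaptic membrane fusion protein, rose to 18.3 ± 2.06 CPM on day 5, against 5.88 ± 0.180 CPM on day 0 (log2 fold change 1.64 ± 0.13, adjusted p = 6.9e-09). SYN1, a synaptic vesicle protein, rose on day 2 to 2.98 ± 0.265 CPM, against 1.69 ± 0.0435 CPM on day 0 (0.81 ± 0.27, adjusted p = 0.012), and on day 5 was at 1.54 ± 0.0217 CPM. STMN2 and ELAVL4 had 0 counts in all 6 libraries and DCX at most 1 count. With single markers higher and most lower or near 0, the list as a whole does not bear out the neuron label, and the groups are called by day.

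Other cell types' markers also moved with the days, and their part in the results was not tested. Endothelial markers summed to 75.9 to 76.9, 88.8 to 88.8 and 144 to 147 CPM on days 0, 2 and 5. KDR, a receptor for VEGF, rose to 61.7 ± 2.32 CPM on day 5, against 4.15 ± 0.634 CPM on day 0, and CLDN5, a tight junction protein, to 8.05 ± 0.898 CPM against 0.123 ± 0.118 CPM. CDH5 and ERG had at most 1 count in any library. TEK made up most of the sum on days 0 and 2, at 70.4, 78.0 and 74.4 CPM on days 0, 2 and 5. Neither TEK nor VWF passed on day 5 against day 0. Immune markers summed to 96.6 to 98.3, 132 to 134 and 45.7 to 49.7 CPM, nearly all of it CD68, with CD3E at 0 throughout. Keratinocyte markers summed to 17.2 to 18.0, 17.6 to 19.8 and 35.6 to 37.8 CPM, nearly all of it KRT10, with KRT5, KRT14, KRT1 and TP63 at 0 throughout.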

How the data were processed

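Total RNA was extracted with TRIzol and DNase-treated, and libraries were made with an Illumina TruSeq kit, per the labels' protocols. The authors deposited expected counts, which are estimates that can be fractional, unscaled between libraries, and 3 columns of means per day that were not used. The submitters' processing notes name GRCh38 as the build; the aligner, counter, annotation release and strand setting are not given in the sources used here. Of 60843 genes, 172 had no name (0.0356 to 0.0475% of a library's counts) and were left out. Of all values 87.2% were whole (to within 1e-09), and the others were rounded.

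All 6 libraries entered 1 fit by day in edgeR 4.0.16 under R 4.3.3, after filterByExpr (minimum count 10, minimum total 15), with TMM factors and the quasi-likelihood test with 3 residual degrees of freedom. Each comparison was adjusted by the Benjamini-Hochberg method over 16327 genes, with calls under 0.05, and glmTreat at a log2 threshold of 1 tested changes past 2-fold. The SE is the log2 fold change divided by the square root of F. Ratios involving 1 to 3 counts carry exact 95% intervals, and a day at 0 was set to 3 counts over its libraries. The scripts were first tested on simulated data. Replicates of a day differed beyond sampling noise (chi-square per degree of freedom 2.31 to 2.45), so no library was counted as a repeat of another.

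The 10 genes and all lists were chosen with earlier results of these data known. Named were all 10 genes, up to 4 called genes of lowest adjusted p per list and comparison with at least 1 CPM, 8 pathway genes whatever their result, and the 3 nearest genes to each of the 10 that was tested; only some of these are given. LRP5, DKK4, SFRP5, WIF1, SOST, STMN2, ELAVL4, the other markers at 0 and the markers named as higher or lower were named after their counts were seen. Coordinates are from GENCODE 29. Alternatives were DESeq2 1.42.0, limma-voom (limma 3.58.1), RLE factors, library totals, no filter or a stricter one, fits of 4 libraries, glmTreat, a replicate block, and each library left out in turn. One list of cell type markers is not reported here.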

Additional observations from a re-analysis of the deposited data

How the results depend on the processing

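Of 231 alternative values for 20 differences of the 7 tested genes, 230 kept direction and call. The exception was APCDD1 at day 2 against day 0, -2.70 without day 0 replicate 2. A setting in which a gene failed the filter gave no value and is not in this count. DKK2 had values in 10 and 9 of 12 settings (days 2 and 5 against day 0). APCDD1 had them in 10, 11 and 11 of 12 (day 2 against day 0, day 5 against day 0, day 5 against day 2). The count of the 10 genes that passed ran from 5 to 6, 6 to 7 and 6 to 6 when 1 library was left out (day 2 against day 0, day 5 against day 0, day 5 against day 2), and that of the other pathway genes, 83 to 86 of them tested, from 55 to 60, 68 to 71 and 64 to 69; a day with 1 library left was assumed to vary like the others. Tested past 2-fold, 3 of the 10 genes passed at day 2 against day 0, where 6 had passed, and 9, 33 and 21 pathway genes passed, where 61, 67 and 69 had; a stricter criterion gives fewer calls by construction. The stricter filter dropped DKK2 and APCDD1 and left 4, 5 and 5 of 5 genes passing.

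Of 1173 alternative values for other named pathway genes, 12 changed sign and 4 lost the call, and the causes were not tested. CTNNB1 at day 2 against day 0 (0.01) was -0.00955 with DESeq2, -0.00956 with RLE factors, -0.18 with library totals, -0.0048 with no filter, and from -0.0203 without day 0 replicate 2 to 0.027 without day 0 replicate 1, with -0.0015 without day 2 replicate 1; at day 5 against day 0 it was -0.0205 with library totals. MYC at day 5 against day 0 was -0.17 with library totals, -0.0134 with no filter, and -0.13 without day 5 replicate 2 to 0.17 without day 5 replicate 1. WNT2 at day 2 against day 0 (0.30) ran from -0.25 without day 0 replicate 2 to 1.05 without day 0 replicate 1, with -0.06 without day 2 replicate 1. With exon unions as lengths, the DKK3 to SFRP1 ratio moved to 8.13, 6.67 and 1.52.

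Same-numbered deviations correlated at 0.001, 0.022 and 0.049, so no deviation shared by replicate number was seen. Such deviations also hold sampling noise, so this does not settle whether the replicate numbers pair the samples. With the number as a block, 6, 7 and 6 of the 10 genes and 60, 67 and 69 of the pathway genes passed. With 2 libraries a day and fewer counts at day 5, the levels of DKK2, SFRP2, SFRP4 and NKD1 rest on a few counts.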
